A study of Mus musculus with 5 samples.

Results

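Open chromatin of mesoderm was compared with that of macrophages, the earliest and the latest stage among the 5 lists of a blood differentiation series used here. DNaseI-seq lists DNase I hypersensitive sites (DHSs), stretches where the nuclease DNase I cuts because nucleosomes are loose or displaced. Sites of both lists were replaced by windows of 500 bp sharing their midpoints, windows that overlapped by at least 25% of their width were merged, and every merged region was classed by the list or lists it came from. This gave 48439 regions from these 2 lists, where the same merging over all 5 lists of the series gave 68846. All populations were derived in culture from mouse embryonic stem (ES) cells of strain 129 that were kept on embryonic fibroblasts and carry a GFP reporter of Brachyury (T), a gene of the primitive streak. Mesoderm (MES) was sorted as Bry:GFP+ and Flk1-, so it had switched on the reporter and did not yet show the VEGF receptor Flk1. Macrophages (MAC) were CD11b+ cells grown from CD41+ blood progenitors. The labels give no deletion and no drug treatment. Each population is 1 list (n = 1), and the label of the MAC list names replicates 1 and 2 together, so no difference between MES and MAC can be set against a replicate error and no p-value is given. Percentages carry 95% Wilson intervals, which cover counting error only.

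Mesoderm arises as cells leave the pluripotent state through the primitive streak under WNT, NODAL, BMP and FGF signals, with T-box factors such as Brachyury and Eomes in command of its genes. Macrophages are phagocytes whose identity rests on the ETS factor PU.1, encoded by Spi1, acting with C/EBP, RUNX, IRF and AP-1 factors, and on signals through the CSF1 receptor. Promoters rich in the dinucleotide CpG are open in most cell types, whereas regulatory elements away from promoters are usually open in few.

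Most regions found in 1 list alone lay away from promoters, so examples of these are shown first, followed by promoters. For the lists of mesodermal, pluripotency and signalling genes, and for the 4 lists of macrophage genes described further on, the region over 2 kb from a transcription start site (TSS) with the most different motifs in its central 200 bp was taken for each of 3 genes, leaving out windows that touch an annotated exon and settling ties by the number of matches and then by chromosome order. An additional MES-only region was taken for its T-box match. They were chosen for their matches and support no share. All are read from the plus strand of GRCm38 (mm10), 5′ to 3′. Capitals mark matches, on either strand, to TEAD (CATTCC), T-box (AGGTGTGA), OCT (ATGCAAAT), SOX (ACAATGG), TCF/LEF (ATCAAAG), FOXH1 (AATCCACA) or GSC/OTX (GGATTA) letters in MES-only regions, and to PU.1 (GAGGAAGT), CEBP (TTGCNNAA), AP1 (TGANTCA), RUNX (TGTGGT), IRF (GAAANNGAA) or MEF2 (TAAAAATAG) letters in MAC-only regions. N stands for any base. A match is a description of the letters and does not show that a factor binds there.
MES only, chr1:180924753-180924952, 10.2 kb upstream of Lefty1, an antagonist of NODAL: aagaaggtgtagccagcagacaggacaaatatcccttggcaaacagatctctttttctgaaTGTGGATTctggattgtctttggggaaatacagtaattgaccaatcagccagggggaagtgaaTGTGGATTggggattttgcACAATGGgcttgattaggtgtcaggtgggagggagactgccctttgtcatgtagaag
MES only, chr4:136135068-136135267, 8.65 kb upstream of Id3, a target of BMP signalling: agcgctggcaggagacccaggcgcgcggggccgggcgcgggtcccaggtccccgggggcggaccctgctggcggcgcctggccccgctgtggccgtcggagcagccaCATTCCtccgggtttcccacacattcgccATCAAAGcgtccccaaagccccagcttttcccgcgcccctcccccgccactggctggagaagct
MES only, chr5:119613558-119613757, 57.2 kb upstream of the T-box gene Tbx3: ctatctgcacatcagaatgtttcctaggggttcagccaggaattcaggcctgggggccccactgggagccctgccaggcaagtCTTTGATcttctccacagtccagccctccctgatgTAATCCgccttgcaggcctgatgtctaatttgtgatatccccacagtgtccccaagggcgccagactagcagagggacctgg
MES only, chr7:144803531-144803730, 35 kb upstream of Fgf3, a fibroblast growth factor: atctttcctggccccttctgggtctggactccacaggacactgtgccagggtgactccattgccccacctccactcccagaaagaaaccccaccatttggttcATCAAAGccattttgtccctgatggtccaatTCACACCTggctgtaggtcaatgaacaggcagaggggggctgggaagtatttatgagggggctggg
MAC only, chr1:131038215-131038414, 18.5 kb downstream of the TSS of Il10, an anti-inflammatory cytokine: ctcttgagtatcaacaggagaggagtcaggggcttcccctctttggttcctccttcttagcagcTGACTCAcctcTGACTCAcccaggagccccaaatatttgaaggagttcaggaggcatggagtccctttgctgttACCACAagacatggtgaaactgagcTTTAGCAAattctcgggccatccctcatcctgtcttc
MAC only, chr1:137751565-137751764, 423 kb downstream of the TSS of Ptprc, which encodes the blood cell phosphatase CD45: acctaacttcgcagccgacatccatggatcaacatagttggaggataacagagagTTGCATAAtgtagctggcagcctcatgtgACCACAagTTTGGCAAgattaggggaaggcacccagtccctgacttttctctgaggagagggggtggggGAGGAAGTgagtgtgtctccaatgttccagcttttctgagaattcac
MAC only, chr5:17879996-17880195, 8.86 kb downstream of the TSS of Cd36, a scavenger receptor: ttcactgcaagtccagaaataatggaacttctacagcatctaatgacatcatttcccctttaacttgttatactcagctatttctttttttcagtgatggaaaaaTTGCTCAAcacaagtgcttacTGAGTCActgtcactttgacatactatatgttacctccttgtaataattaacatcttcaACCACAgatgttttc

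In these examples the Lefty1 region held 2 FOXH1 matches and 1 SOX match, the Id3 region 1 TEAD and 1 TCF/LEF match, the Tbx3 region 1 TCF/LEF and 1 GSC/OTX match, and the Fgf3 region 1 T-box and 1 TCF/LEF match. FOXH1 is the partner of SMAD proteins in NODAL signalling, and TCF/LEF factors are the end point of WNT signalling. The Ptprc region held 1 PU.1, 2 CEBP and 1 RUNX matches. Each of the Il10 and Cd36 regions held CEBP, AP1 and RUNX matches together. All 4 MES-only examples were also listed in the hemangioblast, the next stage, whereas none of the 3 MAC-only examples was listed at any stage between.

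The 200 bases before the TSS, on the strand of the gene, are shown for 2 genes of each kind, with every CG in capitals. They were chosen as illustrations after their promoter states and CG counts were seen. Mixl1, a homeobox gene of the primitive streak, and Fgf4, a growth factor of the early embryo, had a promoter site in MES only. Itgam, which encodes the sorting marker CD11b, and Lyz2, which encodes lysozyme, had one in MAC only. The site of Itgam was 600 bp wide and centred 0.870 kb downstream of the TSS, so the stretch shown for Itgam lies outside it.
Mixl1, chr1:180697035-180697234, minus strand: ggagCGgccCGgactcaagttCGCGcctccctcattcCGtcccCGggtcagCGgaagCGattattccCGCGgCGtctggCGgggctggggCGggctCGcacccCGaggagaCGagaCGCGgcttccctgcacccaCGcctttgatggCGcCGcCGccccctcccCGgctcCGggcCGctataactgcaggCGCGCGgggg
Fgf4, chr7:144861186-144861385, plus strand: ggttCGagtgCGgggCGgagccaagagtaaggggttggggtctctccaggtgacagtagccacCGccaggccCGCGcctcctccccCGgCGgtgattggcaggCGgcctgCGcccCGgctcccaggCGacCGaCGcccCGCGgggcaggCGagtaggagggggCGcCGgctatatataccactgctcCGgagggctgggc
Itgam, chr7:128062440-128062639, plus strand: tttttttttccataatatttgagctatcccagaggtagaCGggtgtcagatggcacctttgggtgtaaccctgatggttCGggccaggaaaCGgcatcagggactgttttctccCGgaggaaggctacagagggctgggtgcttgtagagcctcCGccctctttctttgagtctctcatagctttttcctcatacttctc
Lyz2, chr10:117282273-117282472, minus strand: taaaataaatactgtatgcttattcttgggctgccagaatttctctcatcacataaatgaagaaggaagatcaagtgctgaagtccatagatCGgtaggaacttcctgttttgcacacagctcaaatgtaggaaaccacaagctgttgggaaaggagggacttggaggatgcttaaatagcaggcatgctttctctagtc

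The Mixl1 stretch held 28 CG and the Fgf4 stretch 20, against 5 in Itgam and 1 in Lyz2. The GC content was 74.0% at Mixl1, 73.0% at Fgf4, 50.0% at Itgam and 41.5% at Lyz2. These pairs are far apart, and other promoters were not. Over the same stretch Sp5 and Sall4, open in MES only, held 6 and 7 CG, and Tnf, open in MAC only, held 8.

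The labels were first compared with marker genes. A gene's promoter counted as open in a list when one of its annotated TSS had a listed site no further than 1 kb away. Over all 21774 protein-coding genes, 10.9% had a promoter site in MES only, 44.6% in both lists, 4.05% in MAC only and 40.4% in neither. Of 6 mesodermal marker genes, T, Mixl1, Mesp1, Eomes and Tbx6 were open in MES only, and Msgn1 was open in neither list. With a reach of 2 kb Mixl1 and Tbx6 were open in both, and with a reach of 100 bp Tbx6 was open in neither. Of 8 macrophage markers, 7 were open in MAC only (Itgam, Csf1r, Adgre1, Cd14, Lyz2, Fcgr1 and Mpeg1) and Cd68, a lysosomal glycoprotein of phagocytes, was open in both. None of 9 endothelial markers, among them Cdh5, Pecam1 and Tek, had a promoter site in either list at this reach. With a reach of 2 kb Cdh5 and Pecam1 had one in MAC only and Sox17 had one in MES only. Of 8 lymphoid markers 7 were open in neither, and Ebf1 was open in both. Of 8 erythroid markers, 2 were open in both (Klf1 and Epor), 1 in MES only and 5 in neither. Of 7 neutrophil and mast cell markers, S100a8 and Camp were open in MAC only and 5 in neither. Of 7 fibroblast genes, which would mark feeder cells, Col1a1, Col1a2 and Thy1 were open in MES only and 4 in neither. Sox1, Neurog2 and Map2 of 5 neural markers were also open in MES only and Pax6 in MAC only, and of 5 endodermal markers Cldn6 was open in MES only. The part of other cells in either list was not tested.

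The MES list held 21949 sites with a median width of 800 bp, covering 17.0 Mb, and the MAC list 37456 sites with a median width of 600 bp, covering 22.8 Mb. The lists carry no read counts. The read totals given with the methods are larger for the MES library than for the MAC library and were not used for any value here. The part of sequencing depth and of the site call in the longer MAC list was not tested. Absence of a site means only that no site was listed.

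To determine how much of the mesodermal landscape was present in macrophages, the regions were divided into 10984 found in MES only (22.7%, interval 22.3 to 23.1), 10965 found in both lists (22.6%, interval 22.3 to 23.0) and 26490 found in MAC only (54.7%, interval 54.2 to 55.1). Of the MES regions, 50.0% (interval 49.3 to 50.6) were also in MAC. Of the MAC regions, 29.3% (interval 28.8 to 29.7) were also in MES. Most regions of 1 class lay far from the other list. The median distance to the nearest site of the other list was 13 kb for MES-only regions and 22.5 kb for MAC-only regions. For 574 MES-only regions (5.23%) and 639 MAC-only regions (2.41%) the deposited interval nevertheless overlapped an interval of the other list, because the middles were too far apart for the windows to merge. With the MAC list cut by width to about the length of the MES list, 41.1% of MES regions were in MAC and 38.6% of MAC regions in MES.

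Sharing went with promoters and with wide sites. Of MES regions within 2 kb of a protein-coding TSS, 71.4% (interval 70.6 to 72.2) were also in MAC, against 30.8% (interval 29.5 to 32.1) of those up to 20 kb away and 22.3% (interval 21.2 to 23.4) of those further away. Of MAC regions, 79.1%, 13.8% and 7.66% in these 3 zones were also in MES. Within MES promoters, 87.0% of sites of at least 1000 bp were shared and 23.7% of sites of 100 to 400 bp. Away from promoters, beyond 20 kb, 40.7% of MES sites of at least 1000 bp and 16.3% of those of 100 to 400 bp were shared. For MAC sites beyond 20 kb the values were 16.6% and 6.62%. Shared regions were the widest, with a median of 1000 bp in MES and 800 bp in MAC, against 600 bp in MES-only and 500 bp in MAC-only regions. Narrow sites are also the ones that a peak caller misses most easily, and the part of depth in these shares was not tested.

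**Figure D1:**
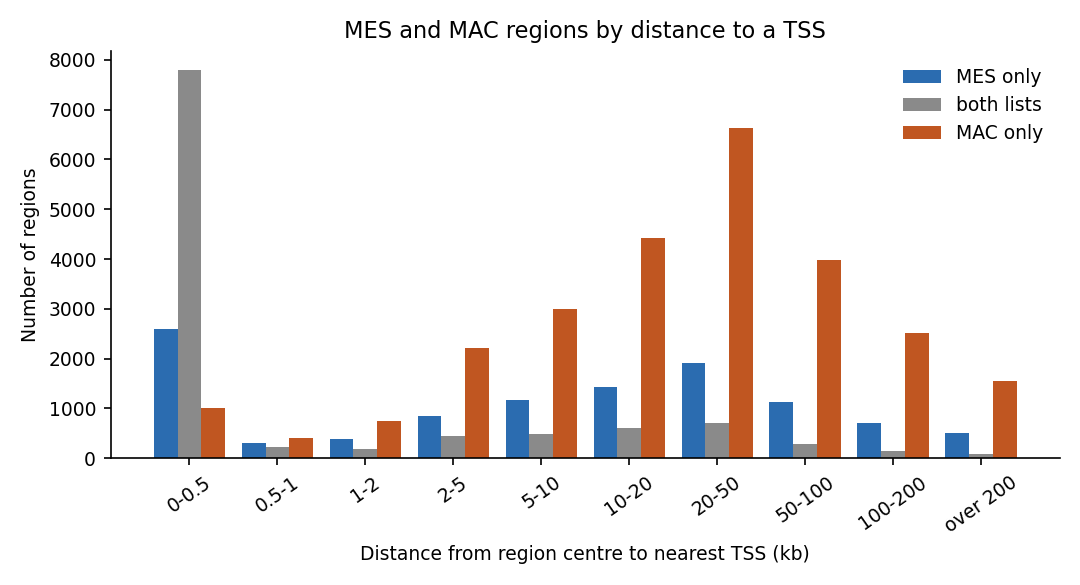
Number of regions (vertical axis) by distance from the region centre to the nearest TSS of a curated protein-coding transcript (horizontal axis, in kb), for regions in MES only (blue), both lists (grey) and MAC only (orange). Within 0.5 kb of a TSS 7791 shared regions stood against 2605 MES-only and 1016 MAC-only regions, and from 20 to 50 kb 6620 MAC-only regions stood against 1905 and 703.

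The classes lay at different places along genes. Promoter regions made up 74.8% (interval 74.0 to 75.7) of shared regions, 29.9% (interval 29.1 to 30.8) of MES-only regions and 8.21% (interval 7.88 to 8.54) of MAC-only regions, where 3.25% of the genome lies that close to a TSS. With only sites as wide as their list's median or wider, the shares were 52.8% for MES only and 13.8% for MAC only, and with the TSS of all transcripts the MAC-only share was 15.4%. Regions over 20 kb away made up 11.1%, 38.6% and 55.4%, against 76.1% of the genome. The median distance to a TSS was 0.132 kb for shared, 10.9 kb for MES-only and 24.3 kb for MAC-only regions. Introns held 55.1% of the MAC-only regions, 39.8% of the MES-only and 17.9% of the shared regions. Even inside promoters the position differed. The centre was within 500 bp of the TSS in 94.9% of shared, 79.3% of MES-only and 46.7% (interval 44.6 to 48.8) of MAC-only promoter regions. The plot of regions by distance shows this as a grey peak at the TSS and an orange bulk beyond 10 kb.

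Base composition followed the same order. CpG-rich regions were those whose middle 500 bp reached a GC share of 0.5 together with an observed to expected CpG ratio of 0.6. Of shared regions 70.5% (interval 69.7 to 71.4) were CpG-rich, of MES-only regions 23.9% (interval 23.1 to 24.7) and of MAC-only regions 2.17% (interval 2.01 to 2.36). Among the wider sites these shares were 45.7% for MES only and 7.25% for MAC only, and the MAC-only share was 1.25% with deposited intervals and 3.55% with windows merged at 250 bp. Within promoters the shares were 87.1%, 61.6% and 21.6%, and over 2 kb from a TSS they were 21.2%, 7.79% and 0.436%. The median GC content over 2 kb from a TSS was 53.4% in shared, 52.2% in MES-only and 46.8% in MAC-only regions. GC content can also affect library preparation and calling, whose part was not tested.

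The same contrast appeared when genes rather than regions were counted. Of 11476 curated protein-coding genes with a CpG-rich TSS, 74.1% (interval 73.3 to 74.9) were open in both lists, 13.2% (interval 12.6 to 13.9) in MES only and 2.22% (interval 1.97 to 2.51) in MAC only. Of 9524 genes without one, 12.3% were open in both, 8.74% (interval 8.19 to 9.32) in MES only and 6.48% (interval 6.00 to 6.99) in MAC only, and 72.5% in neither.

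To follow which functions open in 1 list, promoters were counted in lists of genes chosen by role. These lists were made with earlier results of the data known, so their counts describe and do not test. Their promoter states are set side by side in the plot of gene lists.

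**Figure D2:**
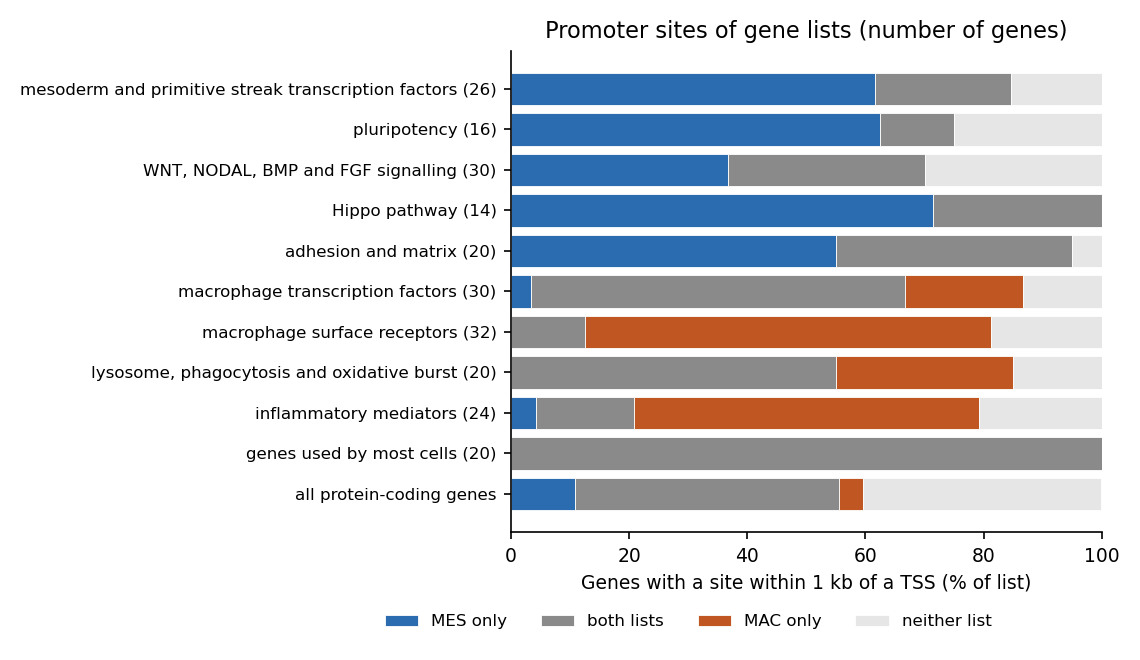
Share of the genes of each list (horizontal axis, % of the list; number of genes in brackets) with a site within 1 kb of a TSS in MES only (blue), both lists (grey), MAC only (orange) or neither list (light). The 5 lists at the top, from mesoderm factors to adhesion and matrix genes, have no orange part, whereas 22 of 32 macrophage surface receptors are open in MAC only, against 4.05% of all protein-coding genes.

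Where genes of the early embryo had a promoter site, it was in MES only or in both lists. None was open in MAC only at this reach of 1 kb. Over all protein-coding genes 4.05% were, so lists of this length would hold few at that share. With a reach of 100 bp Meis1 was open in MAC only. Of 26 mesoderm and primitive streak transcription factors, 16 were open in MES only, 6 in both and 4 in neither. The 16 include T, Eomes, Mesp1, Gsc and Sp5, a target of WNT signalling. The 6 open in both were Mesp2, Snai1, Foxf1, Gata4, Tbx3 and Meis1. These 6 became 3 with the MAC list cut by width, 2 with only the wider sites and 3 with a reach of 100 bp. With a reach of 2 kb Mixl1, Tbx6 and Gsc moved from MES only to both. Of 16 pluripotency genes, 10 were open in MES only, among them Pou5f1, Nanog, Sox2 and Esrrb, which hold the ES cell state. The Krüppel-like factor genes Klf4 and Klf2 were open in both. Klf4 had 22 MAC-only regions and 1 MES-only region over 2 kb from its TSS as nearest gene, which made it the member of the list with the most MAC-only regions. Dnmt3b, a DNA methyltransferase of the early embryo, was open in neither.

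Of 30 genes of WNT, NODAL, BMP and FGF signalling, 11 were open in MES only, 10 in both and 9 in neither. The ligands Wnt3 and Fgf4, the secreted antagonists Lefty1, Cer1 and Dkk1, the receptor gene Fzd10 and the transcription factor gene Lef1 were among those in MES only. Other ligands, such as Nodal, Bmp4, Wnt3a and Fgf8, were among those in neither. The genes open in both were those of the inhibitory Smad6 and Smad7, the BMP targets Id1, Id2 and Id3, the feedback inhibitors Spry2, Spry4, Dusp6 and Axin2, and the transcription factor Tcf7l1. Beyond 2 kb, Id2 had 23 MAC-only regions and 1 MES-only region, and Dusp6 had 15 and 5. Smad7 had 8 of each kind. A shared promoter thus stood beside regions of either class.

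All 14 genes of the Hippo pathway, which governs growth through YAP1 and TEAD factors, had a promoter site in MES. Yap1, Tead1, Tead2, Tead3 and Tead4 were among the 10 open in MES only, with the YAP1 targets Ccn1 and Ccn2, and Wwtr1, Lats1, Ajuba and Vgll4 were open in both. Every one of these 14 genes has a CpG-rich TSS. Of 20 adhesion and matrix genes, 11 were open in MES only, with the cadherin genes Cdh1, Cdh2 and Cdh11, Epcam, laminin chains Lama1 and Lamb1 and the collagens Col4a1 and Col4a2, and 8 in both, with Fn1, Vim and 4 of 4 integrin genes (Itga5, Itgav, Itga6 and Itgb1). Over 2 kb from the TSS, 16 of these 20 genes had more MAC-only than MES-only regions and none had more MES-only regions. Over all 21000 curated genes 7417 had more MAC-only and 2171 more MES-only regions.

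Of 30 macrophage transcription factors, 6 were open in MAC only, Spi1, Irf5, Irf4, Tfec, Bhlhe41 and Ikzf1. Another 19 were open in both lists, among them Cebpa, Runx1, Maf, Irf8 and Mitf, 1 in MES only (Batf3) and 4 in neither (Cebpb, Runx3, Rxra and Nfkb1). The regions away from the promoter nonetheless came mostly from MAC. The 30 genes were nearest to 242 MAC-only and 34 MES-only regions over 2 kb away, and 27 of them had more of the former. Over all genes 24316 MAC-only and 7699 MES-only regions lay over 2 kb away. Klf6 had 31 MAC-only regions, Runx1 29, Maf 25 and Cebpb 15. Of the 30 genes, 26 have a CpG-rich TSS.

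Of 32 surface receptors of macrophages, 22 were open in MAC only, 4 in both (Csf2ra, Cd68, Tlr2 and Mertk), 6 in neither and none in MES only, and none of the 32 has a CpG-rich TSS. The 22 include growth factor receptors (Csf1r, Csf2rb), integrins (Itgam, Itgax, Itgb2), pattern recognition receptors (Cd14, Tlr4, Tlr13), scavenger receptors (Msr1, Mrc1), Fc receptors (Fcgr1, Fcgr2b, Fcgr3) with the adaptors Fcer1g and Tyrobp, and Trem2 and Cx3cr1. Cd36, Marco and the chemokine receptor Ccr2 had no promoter site but had 6, 8 and 3 MAC-only regions further away. Lysosomal, phagocytic and oxidative burst genes were mixed. Of 20, 11 were open in both, including the cathepsins Ctsb, Ctsd and Ctsl and the membrane proteins Lamp1 and Lamp2, and 9 of these 11 have a CpG-rich TSS. Lyz2, Ctss, Gpnmb, Atp6v0d2, Ncf4 and Mpeg1 were open in MAC only, and none of these has a CpG-rich TSS. Cybb and Ncf1, subunits of the oxidase that makes superoxide, had no promoter site.

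Of 24 inflammatory genes, 14 were open in MAC only, with Tnf, Il1rn, Cxcl2, Ptgs2, Nlrp3 and 5 of 5 Ccl chemokines. The inhibitors of signalling Tnfaip3, Nfkbia and Socs3 were open in both with Hmox1, Mmp14 in MES only, and Il1a, Il1b, Il6, Il10 and Nos2 in neither. The cytokine genes without a promoter site still had MAC-only regions over 2 kb away, 4 near Il1a and 4 near Il10, 3 near Il1b and 1 near Il6. All 20 genes used by most cells, such as Actb and Gapdh, were open in both lists.

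With the MAC list cut by width to the length of the MES list, MAC-only promoters among inflammatory genes numbered 9. With only sites as wide as their list's median or wider they also numbered 9, those among surface receptors 14, and MES-only promoters among pluripotency genes 4. Promoters open in both then numbered 5 among adhesion and matrix genes and 7 among lysosomal, phagocytic and oxidative burst genes.

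**Figure D3:**
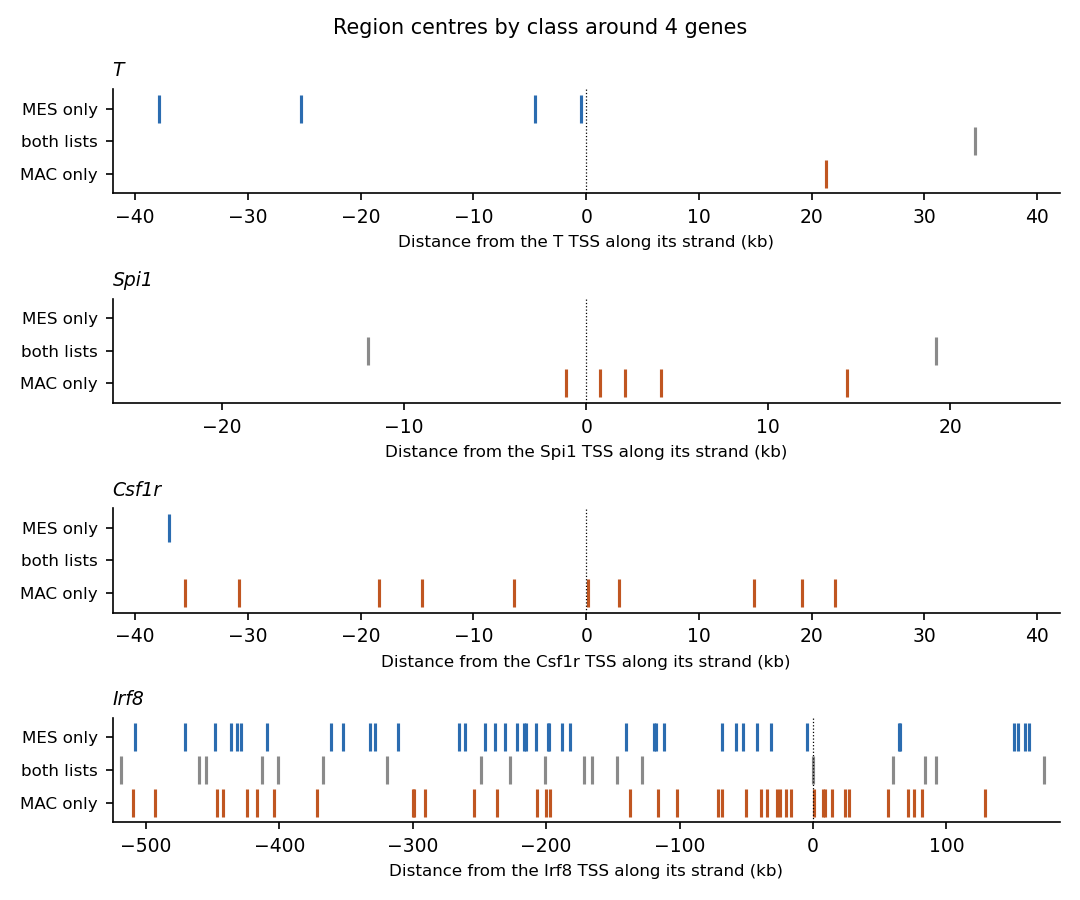
Region centres around 4 genes by their distance from the TSS along the gene's strand (horizontal axis, kb), with 1 row each for MES only (blue), both lists (grey) and MAC only (orange); the dotted line is the TSS. Regions at T lie mostly in the MES row, those at Spi1 and Csf1r mostly in the MAC row, and all 3 rows are filled around Irf8, where the axis is wider. Regions whose nearest gene is a neighbour are drawn too.

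At single loci, T was the nearest gene of 3 MES-only regions, whose centres lay 0.431, 4.53 and 25.3 kb upstream of its TSS, of 1 MAC-only region 21.3 kb downstream and of 1 shared region 34.5 kb downstream. Mixl1 had a MES-only region of 1100 bp centred 0.119 kb upstream of the TSS and a MAC-only region of 300 bp 1.23 kb upstream. The single region of Pou5f1, the gene of the pluripotency factor OCT4, was MES only, 600 bp wide and 1.14 kb upstream. At Spi1, 5 regions were MAC only, at widths of 200 to 700 bp, and 1 region within the gene was shared, with a width of 500 bp in MES and 200 bp in MAC. That shared region was listed at every stage between as well. Itgam had 5 regions, all MAC only. Csf1r had 8, all MAC only, of which the widest, at 1400 bp, was centred 2.90 kb downstream of the TSS within the gene, where the gene is known to hold an intronic enhancer. Of these 8, only the region 22.1 kb downstream was listed at a stage between.

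Runx1, a transcription factor of blood formation, has a distal and a proximal promoter. It was the nearest gene of 30 MAC-only, 4 MES-only and 2 shared regions. The region at chr16:92696958-92697831, centred 0.066 kb upstream of the proximal promoter, was shared, with widths of 800 bp in MES and 1000 bp in MAC. The region at chr16:92825858-92826357, at the distal promoter, was MAC only with a width of 800 bp and was listed at no stage between. Zeb2, a repressor of epithelial genes that macrophages also use, was the nearest gene of 21 MAC-only and 3 MES-only regions. Around its main TSS a MES-only and a MAC-only region were counted because their windows overlapped too little to merge, although sites of both lists lay within 1 kb of the TSS.

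Some genes with start sites far apart had a different one open in each list. Of 1729 genes with curated TSS at least 2 kb apart, 58 (3.35%) had a TSS open in MES only and another open in MAC only. In 40 of the 58 (69.0%) the TSS of MES lay upstream of that of MAC. The genes named next were picked from the 58 after their values were seen. In Ptpn6, which encodes the phosphatase SHP-1, the MAC-only TSS lay 5.55 kb downstream of the MES-only TSS. In Syk, a kinase downstream of Fc receptors, it lay 13.4 kb downstream. In Pik3cd, a lipid kinase, Elmo1, an adaptor of engulfment, and Maml2, a coactivator of NOTCH, it lay 35.4, 382 and 365 kb downstream. In Ccnd3, a D cyclin, and Il1r1, the interleukin 1 receptor, the MAC-only TSS was the upstream one, at 88.4 and 41.5 kb. In 11 of the 58 genes a further TSS was open in both lists. Ang and Rnase4 share the same pair of start sites and count as 2 genes.

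Away from promoters, nearest genes showed where each list was dense. Of 21000 curated genes, 22.5% were the nearest gene of at least 1 MES-only region over 2 kb from a TSS, 10.8% of a shared and 41.6% of a MAC-only region. Genes with much empty sequence around them can collect more regions, and no correction for this was made. The genes with most MES-only regions were Gse1 (15), Zfp423 (12), Galnt17, Grik3 and Tle3 (11 each), Foxl1, Mn1, Sall1 and Zfp36l2 (10 each) and Adgrl2 (9). Zfp423 and Sall1 encode zinc finger factors of development and Tle3 a corepressor. The genes with most MAC-only regions were Lpp (42), Trib1 (36), Irs2 and Klf6 (31 each), Runx1 (29), Tns3 (28), Adgrl2, Cited2 and Nrp1 (26 each) and Btg1 (25). Lpp encodes a protein of adhesion sites, Trib1 a pseudokinase and Nrp1 a coreceptor of semaphorins and VEGF. Among sites as wide as their list's median or wider the counts were smaller, at 5 MES-only regions for Gse1, 1 for Foxl1, 16 MAC-only regions for Lpp and 12 for Runx1. Shared regions were spread more thinly, with at most 8 per gene, near Alkbh8. Alkbh8 stands beside a long stretch without genes, and none of its 8 regions lay within 100 kb of the TSS, where Chd2 led with 6. None of the 11 regions of Galnt17 lay within that distance either. Counted within 100 kb of the TSS alone, Gse1 and Lpp still led, with 13 MES-only and 23 MAC-only regions, but only 3 and 4 of the 10 leading genes of each class stayed among the first 10.

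At some genes regions of both single classes stood near the same gene. A MES-only and a MAC-only region over 2 kb from a TSS were found at 2982 genes (14.2%). Over all 21000 genes, 22.5% had a MES-only and 41.6% a MAC-only region at that distance. Of the 2982 genes, 2196 (73.6%) had no shared region at that distance, and over all 21000 genes 10.8% had one. Of 2259 genes with at least 5 regions over 2 kb away, 1470 (65.1%) held both kinds. No expected share was computed for the 14.2% or the 65.1%. Tle3 had 11 MES-only and 17 MAC-only regions. Zfp36l1 and Zfp36l2, which encode proteins that destabilise mRNA, had 10 and 21 and 10 and 20 in all. Septin9, Adgrl2, Gse1, Zfhx3, Cibar2, Med13l and Prex1 had at least 8 of each with promoter regions included. Some had regions of 1 class alone. Of the 2259 genes, 543 (24.0%) had MAC-only regions alone and 31 (1.37%) MES-only regions alone. Galnt17 (11 regions), Grik3 (11), Clybl and the zinc finger gene Zic5 (8 each) and the kidney and neural factor Pax2 (7) were of the second kind. Atp2b1 (23), Rbms1 and Snx29 (19 each), and Cd44, Dab2, Igf1, Plxnc1 and Ptprc (16 each) were of the first. Cd44 encodes a receptor of hyaluronan and Igf1 a growth factor that macrophages secrete. The MAC list had over 3 times as many regions of its own at this distance, which moves with these counts.

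Regions of 1 class also ran together along chromosomes. The longest run of MES-only regions without any other class between them had 23 regions over 866 kb of chromosome 4 near Pax7, Igsf21 and Klhdc7a. The next had 20 regions over 300 kb of chromosome 14 near Zic5, Clybl and Zic2, and the third 18 regions over 689 kb of chromosome 13 near Msx2, Sptlc1 and Ror2. Pax7, Zic2, Zic5 and Msx2 encode transcription factors of the embryo. The longest run of MAC-only regions had 39 over 1322 kb of chromosome 15 near Dab2, Ptger4 and Fyb. Runs of 35 and 34 followed on chromosome 16 near Snx29 and Lpp. Ptger4 encodes a prostaglandin receptor and Fyb an adaptor of blood cells. The longest run of shared regions had 12.

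A stretch of chromosome 8 with the genes from Gse1 to Foxl1 was chosen after these counts were seen, because it holds a leading gene of MES and a key gene of MAC. Irf8, which directs the macrophage and dendritic cell lineages, was the nearest gene of 15 MAC-only, 8 MES-only and 5 shared regions. Within 35 kb of the Irf8 TSS on either side 11 regions were MAC only, 2 MES only and 1 shared. From 35 to 180 kb downstream, 6 were MES only, 5 MAC only and 4 shared. The 361 kb from the start of Gse1 to the TSS of Gins2 held 24 MES-only, 11 shared and 15 MAC-only regions. Around the forkhead genes Foxf1, Foxc2 and Foxl1, which act in mesoderm, 13 were MES only, 5 shared and 3 MAC only. The map of regions by distance from the Irf8 TSS shows the orange marks closing up around the TSS.

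The 3 widest sites over 2 kb from a TSS are given for each class. In MES only they were 2400, 2200 and 2200 bp wide, near Cxxc5, Irs2 and Alkbh8. In MAC only they were 2200, 2000 and 1900 bp wide, in introns near Ell and 5031439G07Rik and between genes near Smim38. In both lists they reached 3500 and 3600 bp, near Gm2237, Esp38 and Ppp2r3d. These 3 shared regions and those near Irs2 and Alkbh8 were listed at all 3 stages between. Very wide sites in every list can lie at repeats that collect reads, and no list of such places was used.

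To compare the letters under the sites, 22 motifs were searched, in either orientation, within the middle 500 bp of regions lying more than 2 kb away from a TSS, of which 7699 were MES only, 2758 shared and 24316 MAC only. The PU.1 letters were in 14.5% (interval 14 to 14.9) of MAC-only, 5.87% of shared and 3.43% (interval 3.05 to 3.86) of MES-only regions, 4.22-fold more often in MAC-only than in MES-only regions, and in 11.3% of all these regions. AP1 letters were in 35.2% and 14.4% of MAC-only and MES-only regions (2.46-fold, 29.3% of all), CEBP letters in 29.1% and 17.0% (25.6% of all), RUNX letters in 41.4% and 30.1% (37.8% of all) and IRF letters in 18.7% and 12.5% (16.9% of all). MEF2 letters were rarer, in 1.76% and 0.740% (1.47% of all).

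T-box letters, those read by Brachyury and Eomes, were in 4.84% (interval 4.39 to 5.35) of MES-only and 1.76% of MAC-only regions, 2.76-fold more often in the former, and in 2.46% of all. OCT letters were in 4.49% and 2.49% (2.96% of all), TCF/LEF letters in 10.1% and 6.41% (7.15% of all), TEAD letters in 32.1% and 24.2% (26% of all), GSC/OTX letters in 17.9% and 14.2% (14.9% of all) and SNAI/E2A letters (CAGGTG) in 41.3% and 22.3% (27.4% of all). CTCF letters (CNAGGGGGC) were in 5.91% of MES-only and 1.47% of MAC-only regions and in 8.74% of shared regions (3.03% of all), and SP/KLF letters (GGGGCGGGG) in 7.90%, 1.49% and 9.86% (3.57% of all). GATA letters (AGATAA) were in 20.7% and 21.9% (21.1% of all) and SOX letters in 6.26% and 6.75% (6.46% of all). FOXH1 letters were in 2.44% and 1.90% (2.02% of all) and NFKB letters (GGANTTTCC) in 2.66% and 2.18% (2.32% of all). The letters of MITF/TFE (TCACGTGA), ETS (CCGGAAGT), NRF1 (GCGCATGCG) and CREB (TGACGTCA) were in 0.638%, 0.903%, 0.221% and 1.02% of all regions. ETS, NRF1 and CREB letters stood highest in shared regions, at 2.79%, 1.38% and 2.18%.

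**Figure D4:**
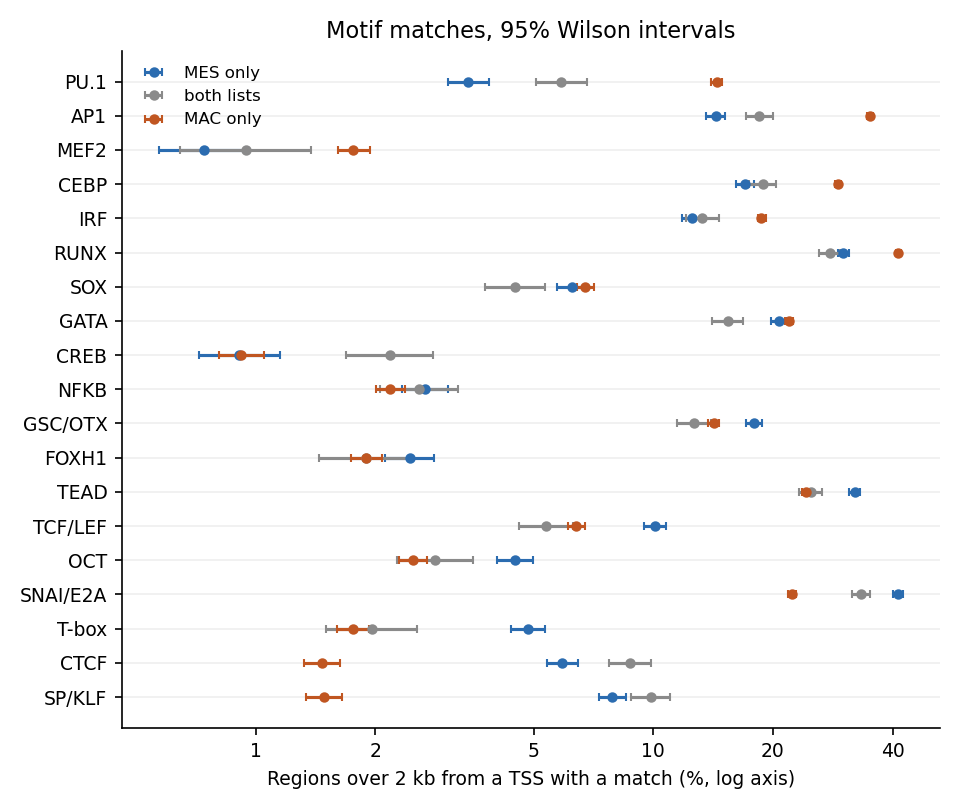
Share of regions over 2 kb from a TSS with at least 1 match to the letters of each motif (horizontal axis, %, log scale) in MES-only (blue), shared (grey) and MAC-only (orange) regions, with 95% Wilson intervals; only motifs found in at least 1% of regions are drawn, ordered by the ratio of the MES-only to the MAC-only share. PU.1 at the top stands at 14.5% in MAC-only and 3.43% in MES-only regions, whereas T-box, CTCF and SP/KLF at the bottom stand higher in MES-only regions.

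Since MES-only regions were richer in GC, the letters were also read in reverse, which keeps their bases but not their CpG content. The log2 ratio of the MES-only to the MAC-only share was -2.08 for PU.1 and 0.27 for its reversed letters, 1.46 for T-box against -0.19, 0.66 for TCF/LEF against -0.86 and 0.41 for TEAD against -0.10. For AP1 it was -1.30 against -0.61, for RUNX -0.46 against -0.23 and for IRF -0.58 against -0.32, and reversed letters of these 3 leaned the same way. So did those of MEF2 (-1.25 against -0.77), GSC/OTX (0.34 against 0.11), SOX (-0.11 against -0.15), FOXH1 (0.36 against 0.47), NFKB (0.29 against 0.31) and GATA (-0.08 against -0.61), and for the last 4 the reversed letters differed at least as much as the motif. Reversed OCT, CEBP and CTCF letters gain a CG, those of MITF/TFE, ETS and CREB lose one, and those of NRF1 hold more than the motif, so reversed letters are no control for these 7 motifs. SP/KLF letters read the same in reverse and have no such control. Among regions with a GC share of 0.45 to 0.50, an alternative added after the data were seen, the ratios were -2.37 for PU.1, -1.12 for AP1, 1.45 for T-box, 1.35 for OCT and 1.55 for CTCF, where it was 2.01 over all regions, and SP/KLF moved from 2.41 to 1.15. MEF2 moved from -1.25 to -0.64, and IRF from -0.58 to -0.14, with IRF letters in 17.8% of MAC-only and 16.2% of MES-only regions. In the central 200 bp the ratios were -3.01 for PU.1, -1.82 for AP1 and 2.48 for T-box. The ratio for GATA was -0.08, and it changed sign to 0.45 at a GC share of 0.45 to 0.50 and to 0.10 in the central 200 bp. The PU.1 and ETS letters share GGAAGT and were counted apart.

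Pairs of motifs of macrophage factors were found in a larger share of MAC-only than of MES-only regions. PU.1 and AP1 letters were both present in 4.25% (interval 4.01 to 4.51) of MAC-only and 0.442% (interval 0.316 to 0.616) of MES-only regions. PU.1 and CEBP letters were both in 3.57% and 0.572%, and CEBP and AP1 letters in 9.77% and 2.61%. The 8 motifs of macrophage factors were PU.1, CEBP, AP1, RUNX, IRF, NFKB, MITF/TFE and MEF2. At least 3 of these were in 13.1% of MAC-only, 4.64% of shared and 3.01% of MES-only regions. The 8 motifs of mesodermal factors were TEAD, T-box, OCT, SOX, TCF/LEF, FOXH1, GSC/OTX and GATA. At least 3 of these were in 6.43% of MES-only, 2.57% of shared and 2.99% of MAC-only regions. Taken singly, NFKB letters leaned to MES-only regions, and SOX and GATA letters slightly to MAC-only regions. These counts were not recomputed with reversed letters or within a band of GC content. T-box and TEAD letters were both in 1.66% of MES-only and 0.419% of MAC-only regions. Motifs with a higher single share also meet more often in pairs, and no pair was compared with the product of its single shares.

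**Figure D5:**
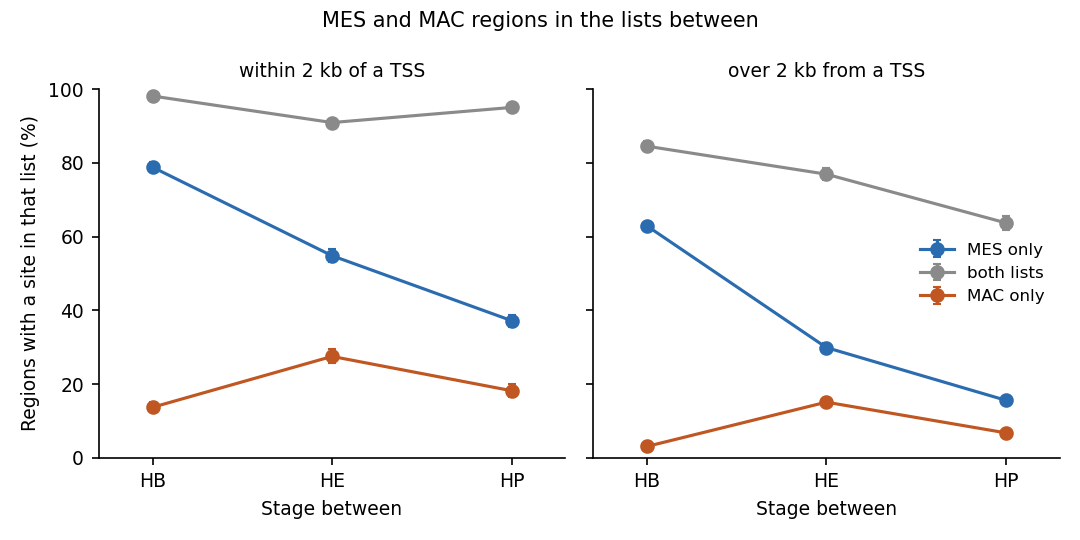
Share of MES-only (blue), shared (grey) and MAC-only (orange) regions that held a site in the list of each stage between (horizontal axis, in order of differentiation; vertical axis, %), for regions within 2 kb of a TSS (left) and over 2 kb away (right), with 95% Wilson intervals that are mostly smaller than the points. Over 2 kb away, MES-only regions stand at 62.9% in HB, 29.9% in HE and 15.6% in HP, and MAC-only regions at 3.08%, 15.1% and 6.77%.

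To place both ends in the sequence of stages, the regions were looked up in the lists of the hemangioblast (HB, 24729 sites), hemogenic endothelium (HE, 33305) and hematopoietic progenitor (HP, 17734). MES-only regions were found in HB at 67.7% (interval 66.8 to 68.5), in HE at 37.4% and in HP at 22.1%. Of MES-only regions, 25.7% were in none of the stages between, 30.7% in HB alone and 14.9% in all 3, so the last group was listed up to HP and not in MAC. Promoter regions were listed at later stages more often than others. In HP, 37.2% (interval 35.5 to 38.8) of MES-only promoter regions were listed, against 15.6% (interval 14.8 to 16.4) of those further away. Most MAC-only regions had no site at an earlier stage. Of these, 80.7% (interval 80.2 to 81.2) were in none of the 3 lists between, 64.0% within promoters and 82.2% further away. HE held 16.2% of them, more than HP with 7.70%, but the HE list was longer and its sites wider, and the part of list length was not tested. Of shared regions 78.6% were in all 3 lists between and 240 (2.19%, interval 1.93 to 2.48) in none, so that these were listed at the start and the end alone. Of these 240, 200 lay over 2 kb from a TSS.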

How the data were processed

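Before deposition the authors used CutAdapt for trimming, Bowtie for alignment to mm10, Picard against duplicates and DFilter, working in 100 bp bins, for site calling, as their methods state. The submitters' processing notes name Bowtie and HOMER, and their versions are not given in the sources used here. The deposited lists hold start and end positions in base pairs and no other value, and the read totals of the libraries were not used here. Every width was a multiple of 100 bp, no interval was repeated and none ran past a chromosome end.

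Windows, classes and annotation were computed in Python 3.11.15 with numpy 2.4.6 and scipy 1.17.1, sequences were read with pysam 0.24.0 and plots drawn with matplotlib 3.10.9. Merging and motif search were first tested on simulated intervals. TSS came from RefSeq annotation of GRCm38.p6 (the same chromosomes as mm10): 25999 curated protein-coding positions of 21000 genes for position and nearest gene, and all annotated TSS of 21774 protein-coding genes for promoter states (within 1 kb). Regions were called promoter within 2 kb, proximal to 20 kb and distal beyond. Exons, introns and CpG content were read at the centre.

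The regions, gene lists and motifs were chosen with earlier results of these data known. Genes were named by rule: up to 6 members of each list, with further members to complete a count, the 10 genes with most regions of each class and with most of both single classes, the 3 widest sites per class and all regions of 8 loci. Names beyond the first 6 of a list, the genes with another start site open in each list, and the Gse1 to Foxl1 stretch, were added after values were seen. No test was run, since each group is 1 list. Alternatives were deposited intervals in place of windows, an overlap of 250 bp, sites at or above the median width, the MAC list cut by width, other TSS and promoter reaches, a stricter CpG definition, a window of 200 bp, reversed letters and genes within 100 kb. Some list members are not reported here.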

Additional observations from a re-analysis of the deposited data

How the results depend on the processing

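With deposited intervals in place of windows, 52.5% of MES regions were in MAC and 30.8% of MAC regions in MES, promoter shares were 28.1% (MES only) and 6.82% (MAC only), and CpG-rich shares 22.4%, 68.9% (shared) and 1.25%. With windows merged at 250 bp these were 46.8%, 27.4%, 32.3%, 9.78%, 26.2% for MES only and 3.55% for MAC only. With only sites as wide as their list's median or wider, 4129 regions were MES only, 6933 shared and 12175 MAC only, and 62.7% of MES regions and 36.3% of MAC regions were in the other list. Promoter shares were then 52.8%, 88.9% and 13.8%, and CpG-rich shares 45.7%, 85.8% and 7.25%. With the MAC list cut by width, 14313 regions were MAC only, shares in the other list were 41.1% and 38.6%, promoter shares 32.3%, 81.2% and 8.61%, and CpG-rich shares 26.3%, 77.2% and 2.50%. With the TSS of all transcripts promoter shares were 39.0%, 80.6% and 15.4%, and with a reach of 1 kb 26.5%, 73.1% and 5.36%. With the stricter CpG definition CpG-rich shares were 19.9%, 62.8% and 1.65%. Without regions whose intervals overlap the other list, an alternative added after the data were seen, the shares in the other list were 51.3% and 29.8%. Wherever promoter shares or CpG-rich shares were recomputed, shared regions stood highest and MAC-only regions lowest.

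Motif ratios (log2, MES only to MAC only) changed sign among the wider sites for NFKB (-0.05). For GATA they did in the central 200 bp (0.10) and at a GC share of 0.45 to 0.50 (0.45). Ratios near 0 also changed sign. ETS moved from -0.28 to 0.22 among the wider sites and 0.11 with the MAC list cut, with -1.31 at a GC share of 0.45 to 0.50. SOX moved from -0.11 to 0.12 in the central 200 bp and 0.07 at a GC share of 0.45 to 0.50. CREB moved from -0.02 to 0.14 among the wider sites and 0.01 with windows merged at 250 bp. The cause was not tested. Reversed letters are other letters and not another processing of the same motif. Their ratio had the opposite sign for PU.1 (0.27), TEAD (-0.10), T-box (-0.19), TCF/LEF (-0.86) and SNAI/E2A (-0.02). It also did for CEBP (0.04), OCT (-1.56) and ETS (0.27), for which reversed letters are no control. Among the wider sites 27 of the 30 counts of regions at leading genes moved by over 1.5 times, and Tgif1 led the MES-only counts (7) and Trib1 the MAC-only counts (19). Promoter states use the deposited intervals, so the merging of windows does not enter them. No paired analysis was possible because each population is 1 list, and no library could be left out. The lists hold no counts and read totals were not used here, so a site that was not listed may still be open.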
